A study of Mus musculus with 16 samples.

Results

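The genes described are 39 mitosis and G2/M genes, taken as a named list of Entrez genes matched to mouse symbols and followed through every library of the study. All 39 were among the 24467 genes of the count tables, and all 39 passed the filter on low counts, among 15963 genes tested. The libraries came from a KPC mouse pancreatic ductal adenocarcinoma (PDAC) line grown orthotopically, in the pancreas of host mice, and recovered from the dissociated tumours by flow sorting. Every group therefore shares the same engineered line, KPC 7TCF-eGFP/Porcn-DMA. 7TCF-eGFP places green fluorescent protein under TCF binding sites, and is meant to report WNT/beta-catenin transcription. What Porcn-DMA contains is not stated in the labels. The sort gave 4 populations of 4 libraries, with 4 mice behind each. They are DN (negative for both reporters), GFP (green only), mScarlet (red only) and DP (positive for both). The design names a WNT-responsive and a WNT-secreting population. GFP is taken as the WNT-responsive one, and mScarlet is the gate that remains for the WNT-secreting one, although no label states this. The labels do not give the strain or age of the hosts, nor whether the line was 1 clone.

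Cells enter mitosis when cyclin B and cyclin A, bound to the kinase Cdk1, are activated by Cdc25 phosphatases. Aurora and Polo-like kinases then build the spindle, the kinetochores attach chromosomes to it, and the spindle checkpoint holds the cell until all are attached. The anaphase-promoting complex (APC/C), switched on by Cdc20, then marks cyclin B and securin for destruction, and the central spindle directs the cleavage of the cell. The transcripts of these proteins rise together late in the cell cycle, under FOXM1, B-MYB and the DREAM/MuvB complex, and they are therefore widely read as a measure of dividing cells in tumours.

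Library totals ran from 80647185 to 104273669 counts, with 15476 to 17805 genes detected per library. Of 8 epithelial markers, the keratins Krt8, Krt18 and Krt19 were abundant in all groups, with Krt8 between 4958 and 12740 CPM (counts scaled by TMM to a common library total). Others were not, and up to 3 of the 8 were at 0 in a library, as in mScarlet library 1. Epcam was at most 0.474 CPM in DN, mScarlet and DP, and ran from 0.024 to 28.98 CPM in GFP. The gates also held RNA of other cell types, most of all in GFP libraries 1 and 4, and the counts of called genes in comparisons that use GFP are given with and without them.

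Transcripts of the mitotic genes were lower in the 2 populations positive for mScarlet. Their summed level was 1102 ± 353 CPM for DN and 878 ± 413 for GFP, against 432 ± 102 for mScarlet and 362 ± 86.8 for DP (SD, n = 4). In the single libraries the sum ran from 776 to 1604 CPM for DN and 564 to 1474 for GFP. It ran from 309 to 551 for mScarlet and 269 to 477 for DP. On this sum, in which abundant genes weigh most, the 8 mScarlet-positive libraries lay below the 8 mScarlet-negative ones. On the mean log2(CPM + 1) over the 39 genes they overlapped. There GFP library 4, at 2.90, lay below mScarlet libraries 1, 3 and 4 (2.94, 3.06 and 3.08) and DP library 4 (3.02). In bulk RNA, fewer cells in mitosis and less of each transcript per cell cannot be told apart.

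The contrast of mScarlet and DP against DN and GFP, here called the mScarlet contrast, was negative for 39 of 39 genes in the edgeR quasi-likelihood fit over all genes. A gene was called at a Benjamini-Hochberg adjusted p under 0.05. The contrast called 22 of the 39 genes lower and 0 higher, where 5.43% of all genes tested were called lower and 3.46% higher. The median log2 fold change was -1.31, with a range from -1.78 to -0.13, beside -0.02 over all genes. Both ends of that range belong to genes that were not called. By role, the calls took 6 of 6 genes of mitotic entry, 3 of 3 mitotic kinases, 2 of 2 APC/C partners and 3 of 3 members of the chromosomal passenger complex. They took 1 of 3 spindle checkpoint genes, 2 of 6 kinetochore genes, 2 of 7 spindle genes, 2 of 6 cytokinesis genes and 1 of 3 genes of chromosome structure. The remaining 17 genes were called in no comparison. Over 23 alternative settings, which include leaving out each library, 15 of the 22 calls were kept in all. Nek2, Cdc25c, Nuf2, Ccnb2, Tpx2, Cdca3 and Cdk1 lost theirs in at least 1. Leaving out any 1 library gave 18 to 25 genes called lower, and without GFP libraries 1 and 4 the count was 18.

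**Figure D1:**
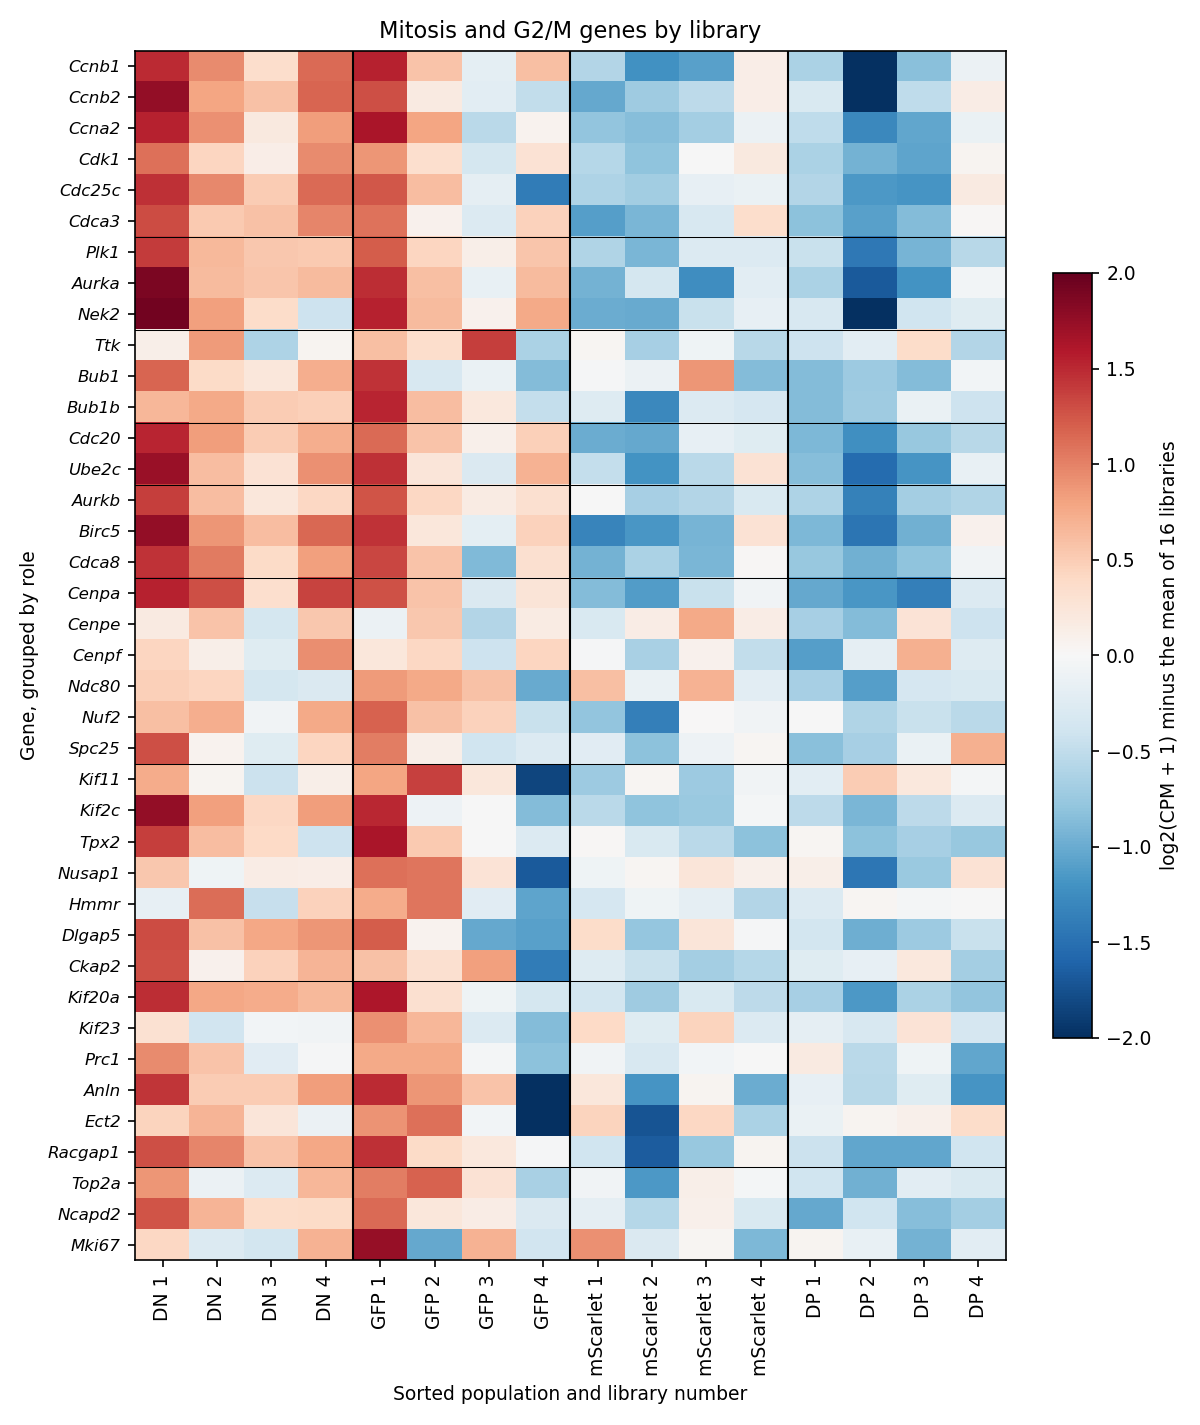
Level of each gene (rows, grouped by role) in each of the 16 libraries (columns, grouped by population), as log2(CPM + 1) minus the gene's mean over the libraries, with red for higher and blue for lower. Most rows are red in DN and blue in mScarlet and DP. GFP differs by library, with a mean log2(CPM + 1) over the genes of 4.44, 3.77, 3.28 and 2.90 in libraries 1 to 4. Low-level genes such as Cenpe, Cenpf, Hmmr and Mki67 mix both colours in DN and in GFP.

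Cdc20, the activator that the APC/C needs to start anaphase, was called in the most pairwise comparisons. It lies on chromosome 4 from 118432901 to 118437343 (GRCm38). It was at 178, 110.3, 88.0 and 102 CPM in DN libraries 1 to 4, at 136, 91.1, 66.1 and 85.5 in those of GFP, at 30.4, 29.6, 54.7 and 51.4 in those of mScarlet and at 32.3, 25.7, 35.8 and 41.3 in those of DP. The highest mScarlet-positive library, at 54.7 CPM, lay below the lowest mScarlet-negative one, at 66.1. The mScarlet contrast was 2.84-fold lower (log2 fold change -1.51 with SE 0.20, edgeR adjusted p = 0.000715). Ube2c, the ubiquitin-conjugating enzyme that works with the APC/C, was at 96.1, 44.3, 35.1 and 54.5 CPM in the DN libraries, at 80.2, 33.8, 23.0 and 46.7 in those of GFP, at 20.1, 11.8, 19.2 and 35.1 in those of mScarlet and at 15.4, 9.17, 12.0 and 25.5 in those of DP. Library 4 of mScarlet reached into the DN and GFP ranges and library 4 of DP into that of GFP. Its log2 fold change in the contrast was -1.49 (SE 0.31, edgeR adjusted p = 0.00907).

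Plk1, the Polo-like kinase of centrosomes and kinetochores, lies on chromosome 7 from 122159435 to 122169884. It was at 80.8, 48.1, 44.2 and 43.8 CPM in the DN libraries, at 70.8, 40.9, 32.9 and 44.9 in those of GFP, at 19.5, 15.6, 24.9 and 24.7 in those of mScarlet and at 22.0, 10.5, 15.4 and 20.2 in those of DP. All 8 mScarlet-positive libraries lay below all 8 others, and DN library 1 stood far above the other DN libraries. The log2 fold change in the contrast was -1.42 (SE 0.21, edgeR adjusted p = 0.00119). Aurka, the Aurora kinase of the spindle poles, was at 67.7, 27.9, 26.3 and 27.9 CPM in the DN libraries, at 50.8, 27.3, 15.7 and 27.9 in those of GFP, at 8.69, 13.6, 6.85 and 15.1 in those of mScarlet and at 11.0, 4.81, 7.09 and 17.0 in those of DP. Its fold change was the largest among the called genes (log2 fold change -1.68 with SE 0.32, edgeR adjusted p = 0.00545), although DP library 4 lay above GFP library 3. Nek2, a kinase of centrosome separation, ranged from 6.56 to 37.5 CPM in DN and from 1.28 to 7.55 CPM in DP, and DN library 4 fell within the mScarlet range. Its log2 fold change was -1.65 (SE 0.40, edgeR adjusted p = 0.0187).

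**Figure D2:**
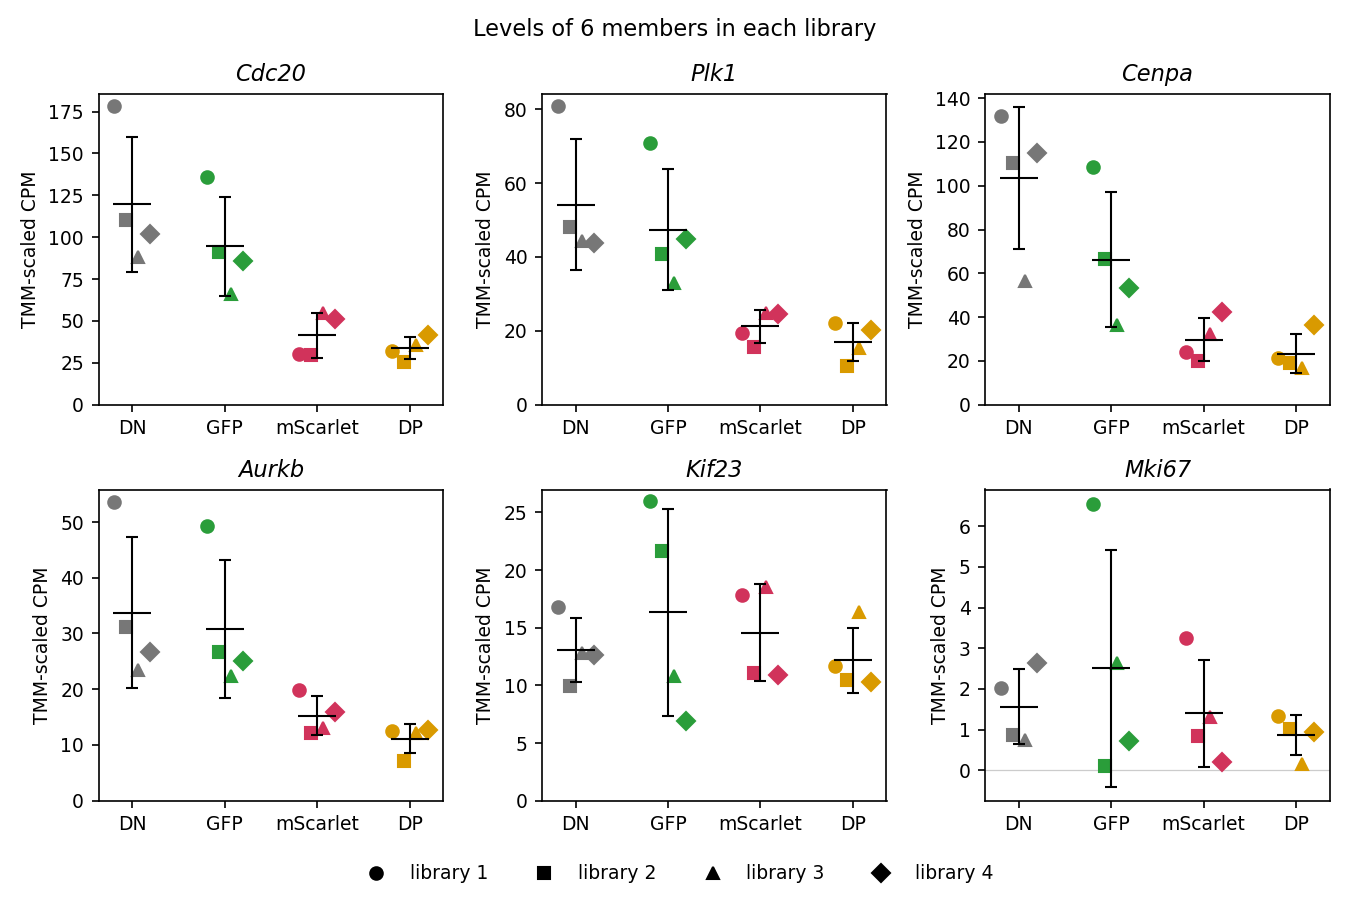
Level of 6 genes in TMM-scaled CPM (y axis, scaled separately for each gene) by population (x axis), with 1 point per library, a horizontal line at the mean and a bar of 1 SD either way. Cdc20, Plk1 and Aurkb show 8 mScarlet-positive libraries below the other 8, Cenpa nearly so, and Kif23 and Mki67 overlap in all populations.

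Cenpa, the histone H3 variant that marks centromeres, lies on chromosome 5 from 30666877 to 30674837. It was at 132, 111, 56.6 and 115 CPM in the DN libraries, at 109, 66.3, 36.3 and 53.3 in those of GFP, at 24.0, 19.9, 32.5 and 42.1 in those of mScarlet and at 21.2, 19.2, 16.5 and 36.5 in those of DP. The DN libraries lay above all mScarlet and DP libraries, whereas GFP library 3, at 36.3 CPM, fell below mScarlet library 4 and DP library 4. The log2 fold change in the contrast was -1.65 (SE 0.26, edgeR adjusted p = 0.00165).

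The start regions of Cdc20, Plk1, Cenpa and Racgap1 are shown because many late cell cycle genes carry a CHR element (cell cycle genes homology region, TTTGAA) and CCAAT boxes near their start site. In background work the MuvB complex binds the former and NF-Y the latter. The sequences are RefSeq's for GRCm38.p6 and run 5′ to 3′ along the gene's strand. Capitals mark TTTGAA or its reverse complement TTCAAA, and CCAAT or its reverse complement ATTGG. The first pair of sequences are the 120 bases before the annotated start of Cdc20 (chr4:118437344-118437463, minus strand) and of Plk1 (chr7:122159315-122159434, plus strand).
Cdc20: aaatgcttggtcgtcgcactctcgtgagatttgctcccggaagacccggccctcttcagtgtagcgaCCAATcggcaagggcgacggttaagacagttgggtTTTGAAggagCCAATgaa
Plk1: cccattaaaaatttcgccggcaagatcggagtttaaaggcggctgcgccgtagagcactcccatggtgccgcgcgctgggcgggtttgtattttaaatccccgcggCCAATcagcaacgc
In the Plk1 sequence the only capitals are a CCAAT box. The next lines set side by side the 30 bases around the CHR element of each gene, with only that element in capitals. It begins 18 bases before the start base in Cdc20 (chr4:118437344-118437373, minus strand), and after it in the others, at 30 in Plk1 (chr7:122159453-122159482), 16 in Cenpa (chr5:30666890-30666919) and 5 in Racgap1 (chr15:99651634-99651663, minus strand).
Cdc20: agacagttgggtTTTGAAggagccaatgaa
Plk1: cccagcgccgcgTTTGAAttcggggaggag
Cenpa: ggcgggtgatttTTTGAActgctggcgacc
Racgap1: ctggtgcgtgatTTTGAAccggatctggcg

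Of the 39 genes, 33 had a start region in the RefSeq promoter table, which spans 250 bases before to 50 after each start. TTTGAA occurred on either strand in 26 of these 33 (78.8%), beside 20.2% of all 27025 genes in the table and 15.4% of those tested here. It lay within 50 bases of the start in 22 (66.7%), beside 5.72% of all genes. CCAAT occurred on either strand in 27 (81.8%), beside 41.1% of all genes, and both motifs occurred in 23 (69.7%), beside 7.97%. The nearest TTTGAA lay between 123 bases before and 40 bases after the start. Other mitotic genes from a second list held TTTGAA in 33 of 61 (54.1%), and S phase genes in 3 of 27 (11.1%). The mScarlet contrast called 13 of 26 genes with TTTGAA lower (median log2 fold change -1.15) and 4 of 7 without it (median -1.62). The 7 genes without it in this window were Birc5, Bub1, Ccnb1, Cenpe, Nek2, Nuf2 and Nusap1. A match of these letters is a description of the sequence, and binding was not measured.

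**Figure D3:**
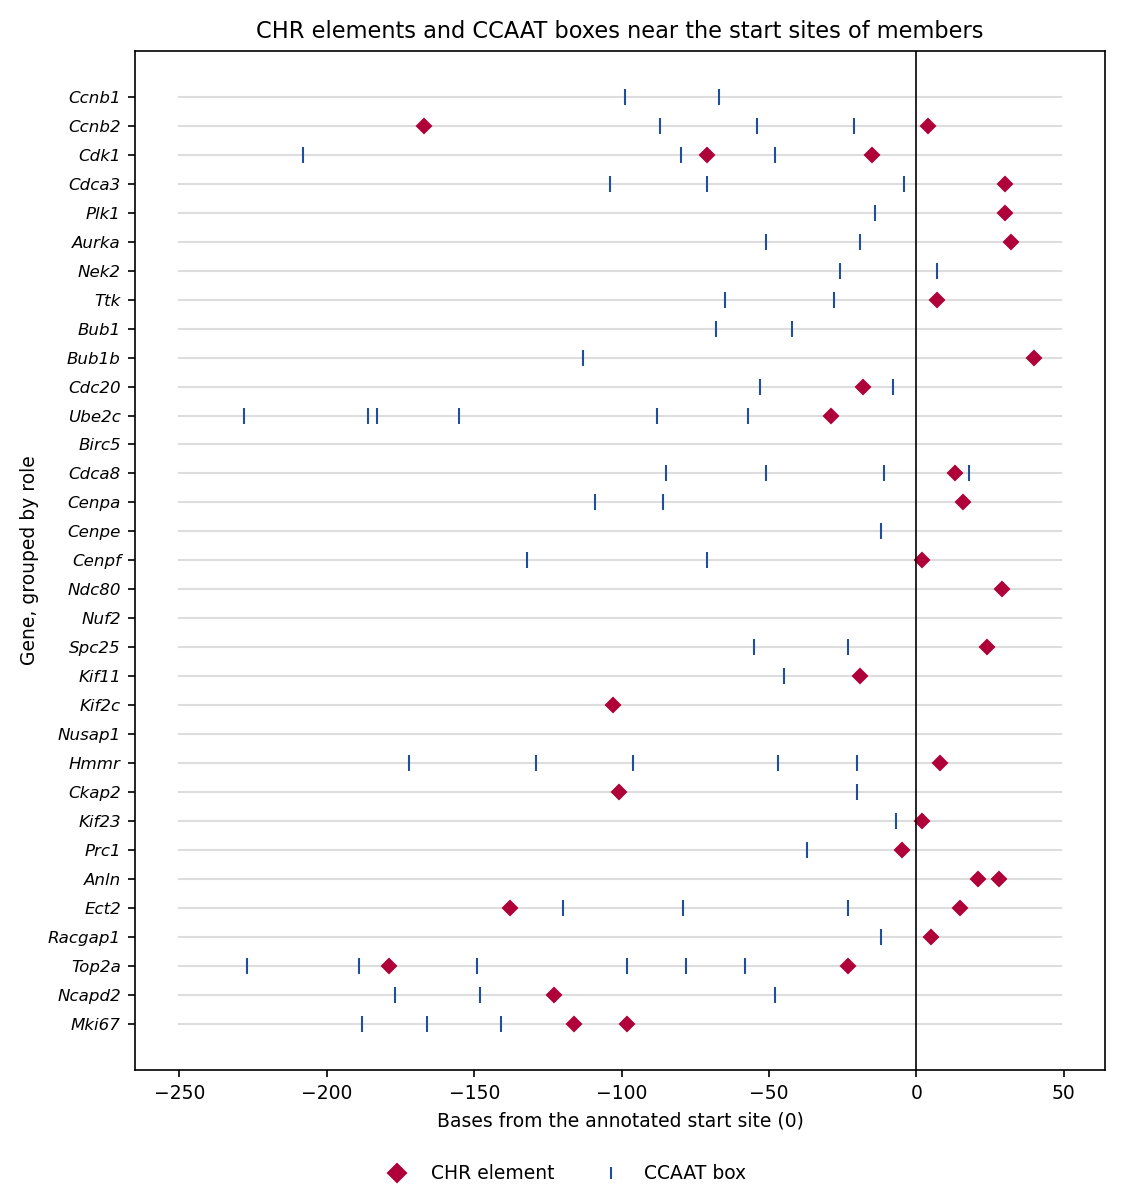
Position of TTTGAA (CHR element, diamonds) and CCAAT (ticks), each on either strand, relative to the annotated start site at 0 (x axis, bases) for 33 genes (rows). Most diamonds lie close to the start, with the ticks mostly before it, and 7 rows have no diamond.

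Of the genes of mitotic entry, 6 of 6 were called lower in the mScarlet contrast. Over the 23 alternative settings the call of Ccnb1 and of Ccna2 was kept in all, that of Cdca3 and of Cdk1 in 22, that of Ccnb2 in 14 and that of Cdc25c in 11. Cdca3, Cdk1 and Ccnb2 lost it without GFP libraries 1 and 4. Cyclin B1 (Ccnb1) was at 48.7, 33.1, 21.5 and 37.6 CPM in the DN libraries, at 50.5, 25.2, 14.4 and 25.6 in those of GFP, at 10.7, 6.64, 7.34 and 18.3 in those of mScarlet and at 10.3, 3.07, 8.89 and 15.2 in those of DP (log2 fold change -1.67 with SE 0.34, edgeR adjusted p = 0.00758). DP library 2 was the lowest, and GFP library 3 lay below mScarlet library 4 and DP library 4. Cyclin A2 (Ccna2) had a log2 fold change of -1.51 and cyclin B2 (Ccnb2) of -1.31. Their catalytic partner Cdk1 had the smallest change among the 22 called genes, from 51.2 ± 15.5 CPM in DN to 26.1 ± 8.58 in mScarlet and 20.5 ± 8.21 in DP (log2 fold change in the contrast -0.97, SE 0.23, edgeR adjusted p = 0.0187). Cdc25c, a phosphatase that activates Cdk1, was the least abundant of the 6, at 11.0 ± 3.23 CPM in DN, 6.47 ± 4.97 in GFP and 2.88 ± 1.86 in DP (log2 fold change -1.42, edgeR adjusted p = 0.0409). It was lower in the mScarlet-positive libraries of 3 of 4 numbers, and its adjusted p reached 0.0839 over the settings run. Cdca3, which promotes the destruction of the Cdk1 inhibitor Wee1, was at 85.8, 49.04, 51.4 and 67.5 CPM in the DN libraries, at 73.4, 36.0, 27.8 and 47.0 in those of GFP, at 15.3, 17.6, 26.9 and 43.7 in those of mScarlet and at 18.8, 15.4, 18.3 and 34.7 in those of DP. Library 4 of mScarlet and of DP overlapped the GFP range, and the gene changed by -1.19 on the log2 scale (SE 0.26, edgeR adjusted p = 0.0122).

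The chromosomal passenger complex couples Aurora B to the inner centromere and later to the central spindle. Its kinase Aurkb was at 53.5, 31.2, 23.5 and 26.7 CPM in the DN libraries, at 49.2, 26.7, 22.4 and 25.03 in those of GFP, at 19.8, 12.2, 13.0 and 16.0 in those of mScarlet and at 12.6, 7.19, 12.1 and 12.7 in those of DP. With Cdc20 and Plk1 it was 1 of 3 genes (7.69% of the 39) whose 8 mScarlet-positive libraries all lay below the other 8, a pattern held by 1.03% of all genes tested. Its log2 fold change was -1.31 (SE 0.22, edgeR adjusted p = 0.00264). Birc5 (survivin), the targeting subunit, was at 81.1, 44.2, 36.5 and 53.3 CPM in the DN libraries, at 65.7, 27.4, 20.4 and 32.6 in those of GFP, at 8.80, 9.89, 11.8 and 28.7 in those of mScarlet and at 12.1, 7.88, 11.53 and 24.98 in those of DP. Library 4 of mScarlet lay above GFP libraries 2 and 3, library 4 of DP above GFP library 3, and the DN libraries above all of both groups (log2 fold change -1.62 with SE 0.33, edgeR adjusted p = 0.00783). Cdca8 (borealin), which binds survivin, was at 49.6, 37.1, 23.2 and 31.7 CPM in the DN libraries, at 45.5, 26.6, 9.06 and 22.1 in those of GFP, at 8.59, 11.0, 8.82 and 17.8 in those of mScarlet and at 9.98, 8.51, 9.56 and 16.7 in those of DP. Of the GFP and DN libraries, GFP library 3 alone fell within the mScarlet-positive range (log2 fold change -1.41 with SE 0.29, edgeR adjusted p = 0.00814). The scaffold of the complex, Incenp, which is not among the 39, averaged 45.6 ± 11.2 CPM for DN against 38.7 ± 5.43 for mScarlet and was not called (log2 fold change in the contrast -0.36, edgeR adjusted p = 0.456).

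In the spindle checkpoint, Bub1b (BubR1, an inhibitor of the APC/C) was called lower (log2 fold change -1.20 with SE 0.26, edgeR adjusted p = 0.012), with 18.3 to 22.5 CPM for DN and 9.00 to 38.8 for GFP, against 4.66 to 10.6 for mScarlet and 6.66 to 11.8 for DP. The GFP range overlapped those of mScarlet and DP. The checkpoint kinases Bub1 and Ttk were barely detected. Bub1 ranged from 0 to 3.98 CPM and Ttk from 0 to 3.12 CPM over the 16 libraries. Their fitted changes had standard errors of 1.23 and 1.01 on the log2 scale, so a change of the size seen for Bub1b was not detectable in them.

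Of the kinetochore genes, Nuf2 was called with Cenpa. Nuf2, part of the NDC80 complex that binds microtubules, was at 4.56, 5.02, 2.48 and 5.16 CPM in the DN libraries, at 7.28, 4.45, 4.04 and 1.67 in those of GFP, at 1.12, 0.414, 2.67 and 2.48 in those of mScarlet and at 2.63, 1.39, 1.68 and 1.52 in those of DP, with DN library 3 and GFP library 4 overlapping the mScarlet-positive libraries (log2 fold change -1.32 with SE 0.39, edgeR adjusted p = 0.0491). Blocking on the library number moved its edgeR adjusted p to 0.0527, although the numbers were not taken as a pairing for GFP with mScarlet. Its partners in that complex, Ndc80 (log2 fold change -0.88, edgeR adjusted p = 0.449) and Spc25 (-0.69, edgeR adjusted p = 0.304), were not called. The motor Cenpe and the coiled-coil protein Cenpf were at most 2.12 and 3.11 CPM in any library and were not called.

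Of the 7 spindle genes, the microtubule depolymerase Kif2c (log2 fold change -1.36 with SE 0.32, edgeR adjusted p = 0.0179) and Tpx2, the activator of Aurora A (-1.22, SE 0.33, edgeR adjusted p = 0.0328), were called. Kif2c averaged 22.6 ± 10.3 CPM for DN and 14.1 ± 11.7 for GFP, against 7.07 ± 2.11 for mScarlet and 6.83 ± 1.42 for DP. The other five, Kif11, Nusap1, Hmmr, Dlgap5 and Ckap2, stayed between 0.0488 and 8.57 CPM. Their log2 fold changes ran from -1.11 for Ckap2 (edgeR adjusted p = 0.101) to -0.60 for Kif11 (edgeR adjusted p = 0.579).

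In cytokinesis, the kinesin Kif20a and the GTPase-activating protein Racgap1 were called. Kif20a, which carries the passenger complex to the central spindle, was at 51.2, 31.1, 30.3 and 28.4 CPM in the DN libraries, at 56.1, 22.4, 16.5 and 13.7 in those of GFP, at 13.5, 10.4, 14.1 and 12.0 in those of mScarlet and at 10.7, 7.39, 11.0 and 9.83 in those of DP (log2 fold change -1.49 with SE 0.26, edgeR adjusted p = 0.00331). Only GFP library 4 overlapped the mScarlet-positive libraries. Racgap1 and the kinesin Kif23 together form centralspindlin, yet their values differed. Racgap1 was at 81.8, 66.1, 49.5 and 57.3 CPM in the DN libraries, at 92.7, 43.3, 38.3 and 32.5 in those of GFP, at 24.9, 9.70, 19.2 and 34.3 in those of mScarlet and at 24.3, 15.6, 15.6 and 24.8 in those of DP (log2 fold change -1.45 with SE 0.26, edgeR adjusted p = 0.00417). GFP library 4 lay below mScarlet library 4. Kif23 was at 16.8, 9.97, 12.8 and 12.6 CPM in the DN libraries, at 26.0, 21.7, 10.8 and 6.88 in those of GFP, at 17.8, 11.1, 18.5 and 10.9 in those of mScarlet and at 11.6, 10.4, 16.3 and 10.3 in those of DP, with all 4 groups overlapping (log2 fold change -0.13 with SE 0.25, edgeR adjusted p = 0.804). The difference between Kif23 and Racgap1 was not itself tested. Without GFP library 1 the Kif23 value was 0.012, the only sign change of any of the 39 genes in this contrast over the settings run.

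Among the genes of chromosome structure, the condensin subunit Ncapd2 was called (log2 fold change -1.05 with SE 0.20, edgeR adjusted p = 0.00591). Its levels were 137, 91.1, 72.7 and 73.5 CPM in the DN libraries, 125, 65.7, 62.7 and 46.0 in those of GFP, 49.4, 37.5, 60.3 and 45.5 in those of mScarlet and 27.2, 42.4, 30.6 and 34.8 in those of DP. The DP libraries lay below all DN and GFP libraries, and GFP library 4 overlapped mScarlet. Topoisomerase II alpha (Top2a) ran from 9.27 to 22.1 CPM for DN and 6.97 to 27.1 for GFP, against 4.63 to 12.5 for mScarlet and 5.38 to 9.72 for DP (log2 fold change -0.89, edgeR adjusted p = 0.0737). Mki67, whose protein is the usual stain for dividing cells, was low, varied widely between libraries of a group and was not called. It was at 2.02, 0.863, 0.741 and 2.64 CPM in the DN libraries, at 6.55, 0.108, 2.64 and 0.731 in those of GFP, at 3.25, 0.854, 1.31 and 0.209 in those of mScarlet and at 1.33, 1.03, 0.169 and 0.948 in those of DP (log2 fold change -0.84 with SE 0.71, edgeR adjusted p = 0.517).

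**Figure D4:**
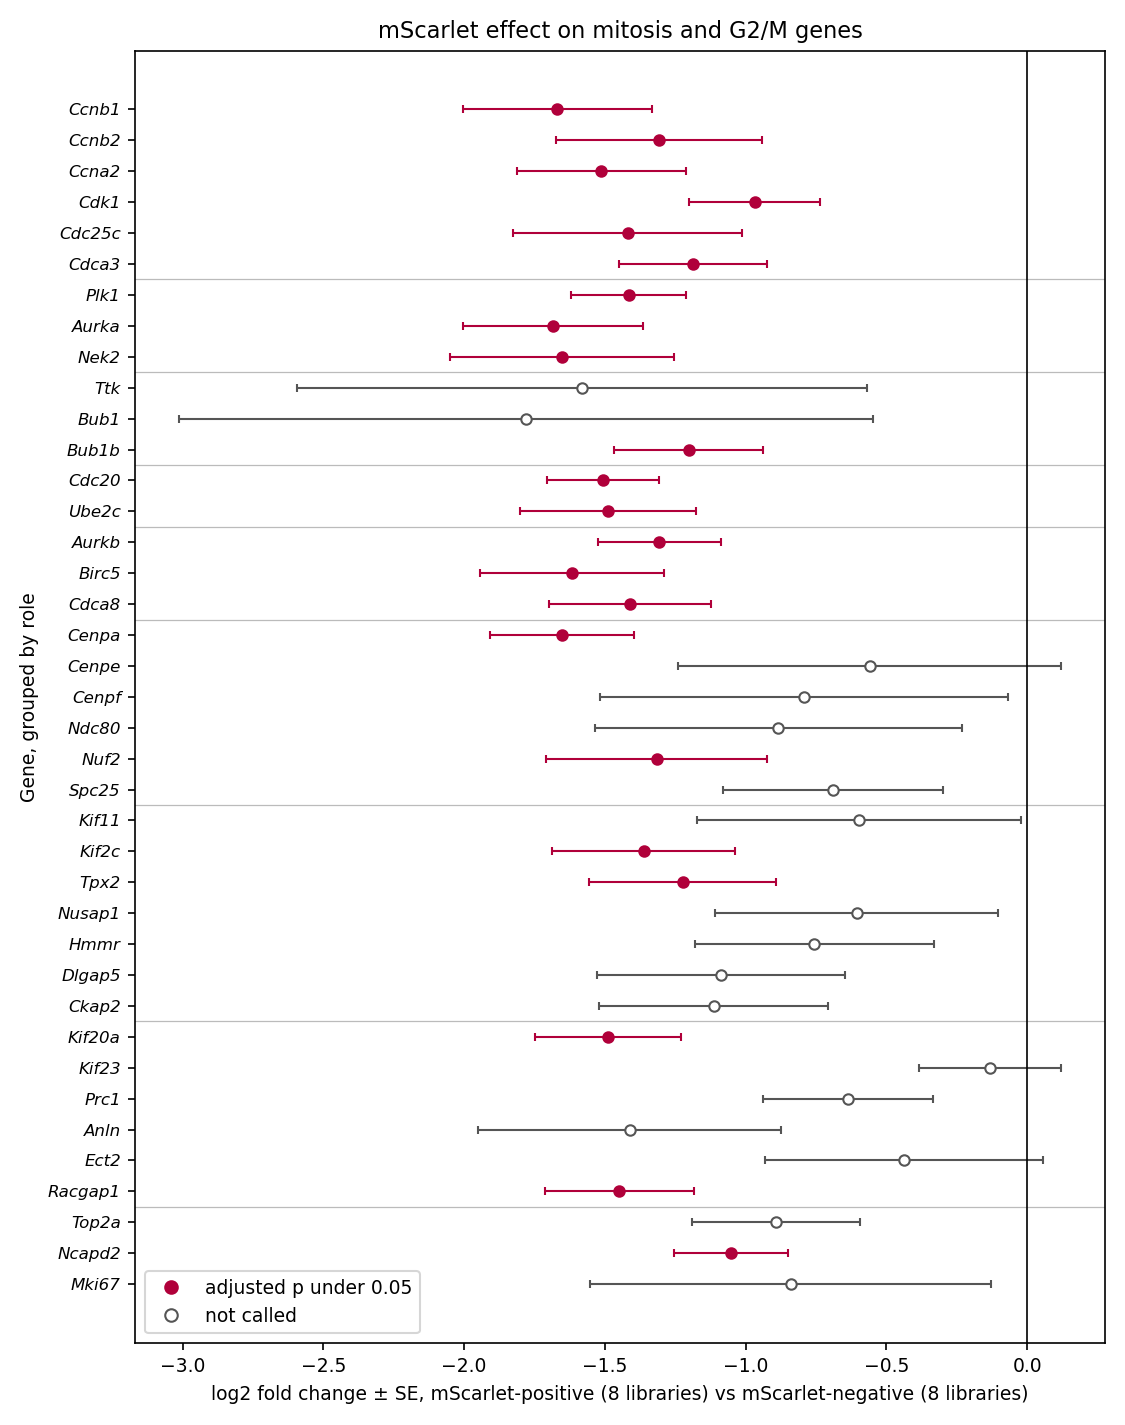
Log2 fold change of each gene in the mScarlet contrast (x axis, 8 libraries against 8, negative for lower in mScarlet-positive cells) with a bar of 1 standard error either way, by role (rows), filled where the edgeR adjusted p was under 0.05. All 39 points lie left of 0, and the open points range from Bub1 and Ttk, with the widest bars, to Kif23, nearest to 0.

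Level and length went with which genes were called. Of 21 genes with a mean of 10 CPM or more over the 16 libraries, 19 were called lower in the mScarlet contrast, all but Kif23 and Top2a, and of 18 genes below that level 3 were, Nuf2, Cdc25c and Tpx2. Of 10 genes with a transcript of 4000 bases or more, 3 were called (median level 6.10 CPM over the 16 libraries), and of 29 with a shorter one, 19 were (median 14.7 CPM). Of all genes tested, at any level or length, 5.43% were called lower. The share among all genes of like level or length is not given, so these counts are not set against a background. Spearman's rho of mean CPM with transcript length was -0.39 over the 39 genes and -0.12 over 14680 protein-coding genes tested, as a description across genes that share the same libraries. Per kilobase of transcript, the level in DN ran from 70.6 CPM per kb for Cenpa and 66.7 for Cdc20 down to 0.156 for Mki67 and 0.158 for Cenpe. The part of length, capture or the amplification of full-length cDNA in this order was not tested.

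**Figure D5:**
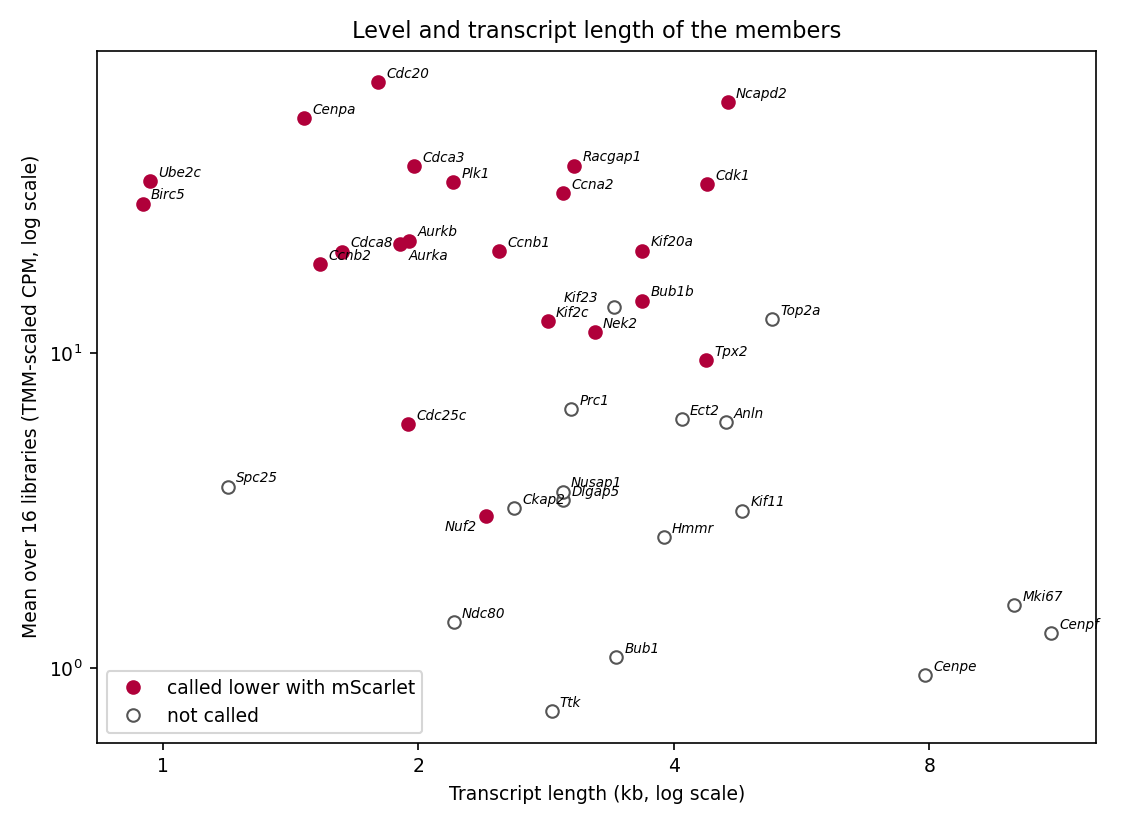
Mean level over the 16 libraries (y axis, TMM-scaled CPM, log scale) against transcript length (x axis, kb, log scale) for each gene, filled where called lower in the mScarlet contrast. Filled points gather at the top, and the 3 longest genes, Cenpf, Mki67 and Cenpe, lie near the bottom at about 1 CPM.

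The mScarlet-only cells were compared with DN cells, which differ in the red gate and lack GFP. Cenpa (log2 fold change -1.80 with SE 0.36, edgeR adjusted p = 0.0292), Cdc20 (-1.52, SE 0.28, edgeR adjusted p = 0.0203) and Plk1 (-1.36, SE 0.29, edgeR adjusted p = 0.0383) were called lower. These are 3 of 39 genes, where 0.589% of all genes were called lower. In all 23 had an unadjusted p under 0.05 on the lower side, beside 7.94% of all genes, and 37 of 39 were negative, with a median of -1.29. For 20 genes the 4 mScarlet libraries lay below the 4 DN libraries, a pattern of 6.06% of all genes. Blocking on the library number gave 15 genes called lower, where the share of all genes was 2.75%. They included Birc5 (edgeR adjusted p = 0.0121), Aurkb (0.0117), Racgap1 (0.0122) and Kif20a (0.0141). The count was 0 without DN library 1, mScarlet library 1 or mScarlet library 2, and 1 without DN library 2, DN library 4 or mScarlet library 3. It was 12 without GFP library 1, 6 without GFP library 4, 17 without both and 7 without mScarlet library 4.

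DP cells against GFP cells ask the same of the red gate within green cells, and share no library with the previous comparison. Both comparisons were tested in the same fit of all 16 libraries with a shared estimate of the spread, so they are not independent. In DP against GFP all 39 genes were negative, with a median of -1.23. Cdc20 (log2 fold change -1.49 with SE 0.28, edgeR adjusted p = 0.039) and Plk1 (-1.48, SE 0.29, edgeR adjusted p = 0.0414) were called lower, 2 of 39 where 0.294% of all genes were. Both were thus called in each of the separate comparisons, which 0.163% of all genes were. Aurkb had an edgeR adjusted p of 0.0512 (log2 fold change -1.47), and 0.00643 when the number was a block. For number 2, GFP and DP deviated together less (correlation 0.126) than the highest pair of unlike numbers (0.175). That block gave 13 genes called lower, where the share of all genes was 2.94%. For 7 genes, Cdc20, Plk1, Aurkb, Nek2, Kif20a, Racgap1 and Ncapd2, the DP libraries lay below the GFP libraries without overlap, beside 4.58% of all genes. The 2 calls did not hold without GFP libraries 1 and 4, which leave 2 GFP libraries. The count was also 0 without any 1 of DN libraries 2 to 4, GFP library 1 or 4, mScarlet library 2 or 3, or DP libraries 1 to 3. It was 1 without mScarlet library 1 or DP library 4, and 7 without GFP library 3.

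DP cells against DN cells, which differ in both gates, gave the most pairwise calls. The count was 12 of 39 lower, where 1.57% of all genes were called lower, with 39 of 39 negative and a median of -1.54. Cenpa was 4.43-fold lower (log2 fold change -2.15 with SE 0.37, edgeR adjusted p = 0.00854), Cdc20 3.54-fold (-1.82, SE 0.28, edgeR adjusted p = 0.00503) and Plk1 3.18-fold (-1.67, SE 0.29, edgeR adjusted p = 0.00957). Those calls were kept in all settings run. Blocking on the library number gave 18 genes called lower, where the share of all genes was 3.73%. Birc5 (-1.93), Aurka (-1.91), Ube2c (-1.89), Kif20a (-1.85), Racgap1 (-1.66), Cdca8 (-1.66), Aurkb (-1.60), Cdca3 (-1.54) and Ncapd2 (-1.47) were also called, with edgeR adjusted p from 0.0156 to 0.0478. For 22 genes the DP libraries lay below the DN libraries without overlap, beside 7.37% of all genes. The count was 3 without DN library 1 or DP library 1, 4 without DP library 2 or 3, and 6 without DN library 2 or 4. Without GFP libraries 1 and 4, which are in neither group but share the estimate of spread, it was 20.

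GFP-only cells against mScarlet-only cells set the single-positive gates side by side. Cdc20 was the only gene called, higher in GFP (2.28-fold, log2 fold change 1.19 with SE 0.28, edgeR adjusted p = 0.0436), 1 of 39 where 1.32% of all genes were called higher. That share of genes is close to the background. In direction, 38 of 39 genes were higher in GFP, with a median of 1.02, and Cenpe was the exception. The GFP libraries lay above the mScarlet libraries without overlap for Cdc20, Plk1, Aurkb, Aurka and Nek2, 5 genes, beside 5.22% of all genes. The call did not hold without GFP library 1 or 4, DN library 2 or 4, mScarlet libraries 1 to 3 or DP libraries 1 to 3. It was joined by others without DN library 1 or GFP library 2 (2 genes) or GFP library 3 (5 genes).

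The green gate gave no such calls. GFP against DN called 0 of the 39 genes, as it did of all genes (0.0%), with 0 of the 39 at an unadjusted p under 0.05 (10.0% of all genes) and 0 called by DESeq2 (1.54%). The median log2 fold change was -0.28, with 28 of 39 negative, and turned to 0.056 without DN library 1. The count was again 0 without GFP libraries 1 and 4, with a median of -0.57. Between libraries of the same number, 15 of the 39 genes were lower in GFP in 4 of 4 numbers, 10 in 3, 9 in 2 and 5 in 1, and the fit with the number as a block also called 0 (0.0689% of all genes). DP against mScarlet also called 0 (0.0% of all genes), with 0 at an unadjusted p under 0.05 (3.03%), 0 by DESeq2 (0.313%) and a median of -0.20. In the contrast of GFP and DP against DN and mScarlet, edgeR and DESeq2 each called 0 of the 39 (0.0% and 2.02% of all genes). Dlgap5, a protein of kinetochore microtubules, was the only gene with an unadjusted p under 0.05 there, beside 2.98% of all genes on the lower side (log2 fold change -0.95 with SE 0.44, edgeR adjusted p = 0.489). Cdc20 had a value of -0.32 (SE 0.19) and Cenpa of -0.49 (SE 0.25). Whether the mScarlet difference changed with GFP was tested as an interaction, and edgeR and DESeq2 each called 0 of the 39 (0.0% and 0.244% of all genes), with 0 at an unadjusted p under 0.05 (3.35%) and a median of 0.05. When GFP libraries 1 and 4 were left out, edgeR again called 0 in the green contrast (median -0.45) and 0 in the interaction (median 0.33). With 4 libraries per group these values do not show that the green gate leaves the genes alike.

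Among libraries of the same group the genes varied together. The correlation of a gene's deviation from its group mean with that of the mean of the other 38 genes, on the log2(CPM + 1) scale over 16 libraries, had a median of 0.71. It was highest for Kif2c (0.91), Kif20a (0.91) and Cdc25c (0.89) and lowest for Cenpf (0.15), Cenpe (0.19) and Ttk (0.26). Libraries share their depth and cell mix across genes, so this is a description. Library 1 was the highest in DN and in GFP, with mean levels of 4.40 and 4.44 on that scale. The contrast of the mScarlet-positive with the mScarlet-negative libraries of the same number was negative in 4 of 4 numbers for 27 genes, in 3 for 8 and in 2 for 4. GFP library 4 stood apart for some long or low genes. It held Kif11 at 0.0488 CPM, Anln at 0.232, Nusap1 at 0.305 and Ect2 at 0.500, while Cdc20 was at 85.5 CPM there.

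Other cell cycle genes were read from lists beside the 39. The mScarlet contrast called 5.43% of all genes tested lower and 3.46% higher. Of 75 other mitotic genes, 24 were called lower and 0 higher in the mScarlet contrast, with 71 negative and a median of -0.85. Without GFP libraries 1 and 4 the count was 17 and the median -0.67. The largest called changes were those of Ncaph (-1.84), Pimreg (-1.83), Troap (-1.78) and Espl1 (-1.68), the last being separase, the protease of anaphase. Pttg1, the securin that holds it, fell from 56.4 ± 17.6 CPM in DN to 16.7 ± 8.07 in mScarlet and 16.1 ± 7.65 in DP (log2 fold change in the contrast -1.58, edgeR adjusted p = 0.00604). The checkpoint protein Mad2l1 was just called (-0.92, edgeR adjusted p = 0.049), with an edgeR adjusted p of 0.185 when those GFP libraries were left out. The chromokinesin Kif4, at most 7.04 CPM, was not (-1.22, edgeR adjusted p = 0.479). Of 15 APC/C genes, which are core subunits and the activator Fzr1, 2 were called lower, Anapc5 (-0.37) and Anapc7 (-0.36). The median over that list was -0.11.

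The median of 17 transcription regulators of G2/M genes was -0.14 in the mScarlet contrast. Mybl2 and Foxm1 of this list were called lower, beside 5.43% of all genes. Both were also called without GFP libraries 1 and 4. Foxm1, the forkhead factor of late cell cycle genes, averaged 39.7 ± 21.0 CPM for DN and 29.9 ± 15.2 for GFP, against 14.0 ± 2.79 for mScarlet and 12.4 ± 0.782 for DP (log2 fold change -1.38 with SE 0.25, edgeR adjusted p = 0.00417). Mybl2 (B-MYB) ran from 12.2 to 43.3 CPM for DN and 10.6 to 30.6 for GFP, against 5.79 to 9.06 for mScarlet and 4.99 to 7.28 for DP (log2 fold change -1.58 with SE 0.28, edgeR adjusted p = 0.00355). The repressors E2f7 (-0.74, edgeR adjusted p = 0.299) and E2f8 (-1.44, edgeR adjusted p = 0.332) were not called. Of 33 S phase genes, 17 were called lower and 16 did not pass, beside the 5.43% of all genes called lower, with 32 negative and a median of -0.70. The count was 14 without GFP libraries 1 and 4. Ccne2 (-2.68), Cdc45 (-1.48), Mcm10 (-1.37) and Uhrf1 (-1.24) had the largest called changes.

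Of 13 G1 cyclins, kinases and inhibitors, 4 were called lower, Cdkn1c, Cdkn2d (-1.02), Cdk4 (-0.38) and Ccnd3 (-0.33), and 1 higher, Ccnd2 (0.54). Of all genes, 5.43% were called lower and 3.46% higher. The list's counts were 1 lower and 1 higher when GFP libraries 1 and 4 were left out. Cdkn1c was listed at 0 in the 4 mScarlet libraries and at 0.258 to 37.6 CPM in GFP, so no fold is given. Cdkn1a (p21), an inhibitor of cyclin-dependent kinases, averaged 154 ± 46.4 CPM for DN, 213 ± 45.9 for GFP, 122 ± 21.5 for mScarlet and 142 ± 38.3 for DP (log2 fold change -0.46, edgeR adjusted p = 0.0923). Blocking on the number gave it an edgeR adjusted p of 0.00678, although the numbers were not taken as a pairing for GFP with mScarlet. Without GFP libraries 1 and 4 the log2 fold change of Cdkn1a was -0.32 (edgeR adjusted p = 0.345). Ccnd1 (cyclin D1) was not called (-0.41, edgeR adjusted p = 0.067).

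Fibroblast and acinar markers were lower in the mScarlet contrast in part of their lists, and few or no markers of the other cell types were called. Of all genes tested, 5.43% were called lower. Fibroblast markers were negative in 11 of 11 genes (6 called lower), with a summed level of 612 to 9169 CPM for GFP, 141 to 1438 for DN, 27.1 to 272 for DP and 17.9 to 91.7 for mScarlet. Acinar markers were negative in 13 of 13 (4 called lower), at 389 to 29274 CPM for GFP, 104 to 945 for DN, 73.7 to 1476 for mScarlet and 48.2 to 197 for DP. Macrophage markers were negative in 13 of 14 (0 called by edgeR, 1 at an unadjusted p under 0.05), yet they ran from 3323 to 11770 CPM for DP and 3017 to 38340 for GFP, against 1201 to 5331 for DN and 1378 to 3809 for mScarlet. Endothelial markers were negative in 9 of 9 (1 called) and lymphocyte markers in 8 of 10 (0 called by edgeR, 0 at an unadjusted p under 0.05), with sums of at most 88.8 and 44.1 CPM in any library. Erythroid markers were negative in 4 of 4 (again 0 and 0), at 0.432 to 278 CPM for DN, 4.69 to 4539 for GFP, 0.154 to 205 for mScarlet and 0.0564 to 610 for DP. Of the 8 epithelial markers 3 were negative, with 0 called lower and 1 called higher. Col1a1, Cpa1 and Csf1r, defining markers of fibroblasts, acinar cells and macrophages, were above 0 in all 16 libraries, and the T cell marker Cd3e was at most 6.31 CPM. Within mScarlet against DN, fibroblast markers were negative in 11 of 11 genes (1 called lower), endothelial markers in 8 of 9, with sums of 4.84 to 7.05 CPM for mScarlet and 12.3 to 24.2 for DN, macrophage markers in 13 of 14, lymphocyte markers in 8 of 10, erythroid markers in 3 of 4 and acinar markers in 5 of 13. The fibroblast and endothelial sums of those groups did not overlap. Without GFP libraries 1 and 4, the mScarlet contrast called 4 fibroblast markers lower and 0 of each other marker list, beside 18 of the 39 mitotic genes. Fibroblast markers were still negative in 11 of 11 genes (median -3.02), acinar markers in 13 of 13 (-1.99) and endothelial markers in 8 of 9 (-1.18). The median of the 39 was -1.12. Macrophage markers were then negative in 9 of 14 (-0.25), lymphocyte markers in 5 of 10 (-0.06), erythroid markers in 0 of 4 (0.44) and epithelial markers in 0 of 8 (0.34). The part of other cells in the lower mitotic transcripts was not tested.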

How the data were processed

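Full-length cDNA of FACS-isolated cells was amplified by PCR and sequenced, per the labels' protocols. The deposited values are raw read counts, keyed by Entrez gene and not normalized by the authors. GRCm38 (mm10), STAR and DESeq2 1.24.0 appear, with no role given, in the submitters' processing notes. The labels name neither the read counter nor its strand setting. Reads of genes that share exon bases on opposite strands therefore cannot be told apart. Among the 39 genes this concerns Kif20a (1271 bases with Cdc23), Prc1 (670, Rccd1), Ube2c (592, Tnnc2), Ccna2 (378, Exosc9), Nek2 (298, Gm38037), Nusap1 (172, Oip5), Plk1 (156, Gm44985) and Cdc20 (53, Elovl1). Identifiers without a symbol (30, with 0.723% to 1.93% of counts) stayed in the totals.

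Here, counts of all 16 libraries were fitted with edgeR 4.0.16 in R 4.3.3 (quasi-likelihood test, filterByExpr by group, TMM, group as the only term), with adjustment over 15963 genes. The 6 pairs of groups, both gate contrasts and their interaction were tested. The contrast values are log2 fold changes with standard errors, and levels are TMM-scaled CPM. The fit was also run on simulated counts with changes planted in the mScarlet group alone. Those counts held no pairing of libraries and no RNA of other cells that varied between libraries, so the run does not bear on either. The alternatives were DESeq2 1.42.0, voom of limma 3.58.1, RLE size factors, no filter, the library number as a block, fits of the compared groups alone, each library left out, GFP libraries 1 and 4 left out, and, chosen after seeing the data, robust empirical Bayes and the other lists without GFP libraries 1 and 4. Counting error is small at these depths, but reads carry no molecular identifiers.

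The library number was taken as a pairing where same-numbered libraries deviated together from their group means over genes, with every correlation over 0.1. This held for all pairs of groups (0.126 to 0.608) except GFP with mScarlet, where number 4 gave 0.092. The highest correlation there between unlike numbers was 0.022. The rule was read for each pair of groups alone, although a number that marked 1 mouse would pair all 4 groups. What the number marks is not stated in the labels. Transcript lengths are of the longest principal transcript in GENCODE M21. The gene list, its roles, the other lists and the markers were chosen with earlier results of these data known. All 39 genes may be named, with full values for those called in a pairwise comparison, 10 genes of other lists fixed by name, and up to 4 called genes with the largest change per list. Promoters were printed for genes called in the most comparisons that held TTTGAA, where the fourth, tied with others, was taken by its adjusted p after values were seen. The per-library values of Ccnb1, Nuf2, Kif23 and Mki67 were also chosen after values were seen. Values of some single marker genes are not reported here.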

Additional observations from a re-analysis of the deposited data

Results flagged for a closer look

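Within the groups of 4 libraries, 11 of 156 gene-by-group sets held a library far from the other libraries by Dixon's criterion, where chance marks about 1 in 20. In DN, library 1 was far above the others for Plk1 (80.8 CPM), Aurka (67.7 CPM) and Kif20a (51.2 CPM). In GFP, library 1 was far above for Aurkb (49.2 CPM) and Bub1 (3.98 CPM). In mScarlet, library 2 was far below for Bub1b (4.66 CPM) and library 4 far above for Birc5 (28.7 CPM). In DP, library 2 was far below for Nek2 (1.28 CPM) and Aurkb (7.19 CPM), library 1 far above for Tpx2 (8.34 CPM) and library 4 far above for Bub1 (0.756 CPM).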

How the results depend on the processing

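The mScarlet contrast gave 19 to 25 of the 39 genes lower under the other tools, scalings, filter and block, and its median stayed negative under all. The pairwise counts depended on the setting. Shares of all genes are given above for the main fit, and for the block in mScarlet vs DN, DP vs GFP and DP vs DN. For the other pairwise counts in this paragraph no such share is given, so they are not set against a background. DESeq2 called more genes of any kind in GFP vs DN, 1.54% of all genes where edgeR called 0.0%. DESeq2 called 18 genes lower in mScarlet vs DN, 17 in DP vs GFP and 21 in DP vs DN, and 13 higher in GFP vs mScarlet. Fits of the compared groups alone gave 13, 0, 20 and 0 in the same order. Limma voom gave 5 in mScarlet vs DN and 0 in GFP vs mScarlet, and RLE size factors gave 2 in the latter. The replicate block gave 15 calls in mScarlet vs DN, 13 calls in DP vs GFP and 18 calls in DP vs DN. In GFP vs mScarlet it gave 9, but there the numbers were not taken as pairs. For number 1 of that comparison the correlation of deviations was 0.168, under the highest between unlike numbers (0.183). For number 2 of GFP with DP, taken as paired, these were 0.126 and 0.175. In the mScarlet contrast the block ended the call of Nuf2 and gave 21 calls. That contrast also holds GFP and mScarlet, whose numbers were not taken as pairs. Without GFP libraries 1 and 4 the counts were 17, 0, 20 and 0. Leaving out each library gave 0 to 12 calls in mScarlet vs DN, 0 to 7 in DP vs GFP, 3 to 18 for DP vs DN, 0 to 5 for GFP vs mScarlet and 18 to 25 in the mScarlet contrast. The cause was not tested. The median log2 fold change in GFP vs DN ran from -0.60 to 0.056 with each library left out, and was above 0 without DN library 1. In the interaction it ran from -0.16 to 0.47 and turned to -0.16 without DN library 1, -0.07 without GFP library 3, -0.10 without GFP library 4, -0.06 without mScarlet library 2 and -0.09 without DP library 4. For genes near 1 CPM, such as Ttk, Bub1, Cenpe, Cenpf and Mki67, standard errors ran from 0.68 to 1.23 on the log2 scale, so a change of the size of the called genes was not detectable. The part of depth in this was not tested.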
